A study of Mus musculus with 2 samples.

Results

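The circadian clock of mammalian cells is a feedback loop of transcription. Arntl (also called BMAL1) and Clock encode the activating pair of the loop, which binds E-boxes in DNA. Per1, Per2, Cry1 and Cry2 encode the repressors that act back on that pair. Nr1d1 and Nr1d2 encode REV-ERB alpha and beta, nuclear receptors that repress genes carrying a ROR element (RORE), Arntl among them. Dbp encodes an activator that binds D-boxes, and Bhlhe40 (DEC1) encodes a repressor that binds E-boxes. The pituitary gonadotrope, which secretes luteinizing hormone and follicle-stimulating hormone under pulses of gonadotropin-releasing hormone (GnRH), is known to hold such a clock. These 10 genes were examined here out of 21938 protein-coding genes in the GENCODE vM21 annotation of the mouse genome (GRCm38).

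Open chromatin was mapped by ATAC-seq, in which the Tn5 transposase cuts accessible DNA, in LβT2 cells, an immortalized mouse gonadotrope line, at passage 21. Both samples received the same treatment, 4 pulses of 2 nM GnRH given 2 h apart over 6 h and 45 min, and the cells were collected 45 min after the last pulse. There was 1 condition, with 2 replicates and no untreated sample, so the values below describe the clock genes in pulsed cells and hold no response to GnRH. With 2 samples of 1 group no test between groups was possible. The labels do not say whether the replicates came from separate cultures, so their spread may be technical.

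The deposited data were a list of peaks for each replicate, 58519 in replicate 1 and 64984 in replicate 2. For each peak they give the fold enrichment over background at its summit and the -log10 of its q-value. A peak was assigned to a clock gene when its summit lay in the gene body or within 50 kb of either end. It was called promoter within 1 kb of any annotated transcription start site (TSS) of that gene, intronic or exonic elsewhere in the body, and distal outside it. The read depth behind each replicate's peaks is not given in the sources used here. The tags piled up at each summit were solved from the fold enrichment, and their 95% exact Poisson intervals cover counting error only. Across all protein-coding genes with a promoter peak in both replicates, the fold was higher in replicate 2 for 89.7%, so the replicates are given side by side throughout. The cell type label was checked on marker genes. Of 6 gonadotrope genes, 3 had a promoter peak in replicate 1 (Lhb, Cga and Gnrhr) and 4 in replicate 2 (also Nr5a1), while Pitx1 and Lhx3 had none in either. Of 7 genes of other pituitary lineages, none had a listed promoter peak in either replicate. The share over all protein-coding genes was 32.3% and 44.4%, so lists this short give only a weak check.

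All 10 clock genes had a promoter peak in both replicates. The background was 32.3% of protein-coding genes in replicate 1, 44.4% in replicate 2 and 30.8% in both. At a stricter level, a -log10 q of at least 10, 6 clock genes remained in replicate 1 against 11.1% of all genes, and 8 in replicate 2 against 26.7%. The 6 that passed in both replicates, against 10.8% of all genes, were Arntl, Per1, Per2, Cry2, Nr1d2 and Dbp. Clock and Cry1 passed in replicate 2 and not in replicate 1, and Nr1d1 and Bhlhe40 passed in neither. Where a promoter peak was present, its median -log10 q was 13.3 in replicate 1 and 26.7 in replicate 2 for the clock genes, against 6.97 and 12.5 for all genes with such a peak. Among those genes, 7 clock genes lay above the median in each replicate, and 5 in replicate 1 and 6 in replicate 2 lay above the upper quartile. The median width of these peaks was 618.5 and 872 bp for the clock genes, against 384 and 502 bp.

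The clock gene promoters were also rich in CpG, which marks many widely used promoters. In the 300 bp from 250 bp before to 50 bp after the gene start, their median GC content was 65% against 55% of all protein-coding genes. Of the 10 clock genes, 9 had a CpG-rich promoter (GC above 50% and an observed over expected CpG ratio above 0.6), and Nr1d1 fell just short at a ratio of 0.58. Among the 9004 protein-coding genes with a CpG-rich promoter, the share with a promoter peak was 51.5% in replicate 1 and 70.9% in replicate 2. The -log10 q of those peaks had a median of 6.97 and 13.4. All 9 clock genes of this class had one in both. The class was set after the values were seen.

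**Figure D1:**
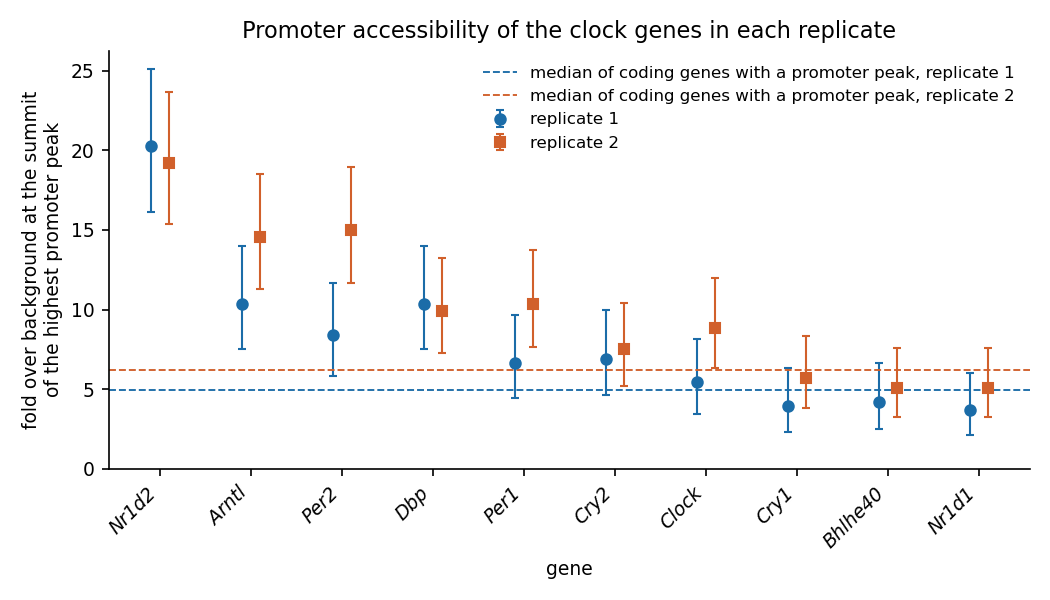
Fold over background at the summit of the highest promoter peak of each clock gene (vertical axis, linear from 0), with circles for replicate 1, squares for replicate 2 and bars for the 95% Poisson counting interval. Dashed lines are the medians of all protein-coding genes with a promoter peak, 4.94 in replicate 1 and 6.17 in replicate 2. Nr1d2 is highest in both replicates, and Cry1, Bhlhe40 and Nr1d1 lie below the line of their replicate in each.

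The order of the promoters by mean fold over background was Nr1d2, Arntl, Per2, Dbp, Per1, Cry2, Clock, Cry1, Bhlhe40 and Nr1d1. As the plot of promoter fold shows, Nr1d2 stood apart at 19.7 ± 0.75 (SD, n = 2), since its replicate values (20.2 and 19.2) did not overlap those of Arntl, the next in order. Every other neighbouring pair overlapped in its range over the replicates, so the order below Nr1d2 was not resolved gene by gene. The lowest 3 were Cry1 at 4.84 ± 1.26, Bhlhe40 at 4.63 ± 0.62 and Nr1d1 at 4.39 ± 0.97 (SD, n = 2). The fold was higher in replicate 2 for 8 of the 10 clock genes, and Nr1d2 and Dbp were the exceptions. The median ratio of replicate 2 to replicate 1 was 1.39 for the clock genes and 1.45 for all genes with a peak in both.

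**Figure D2:**
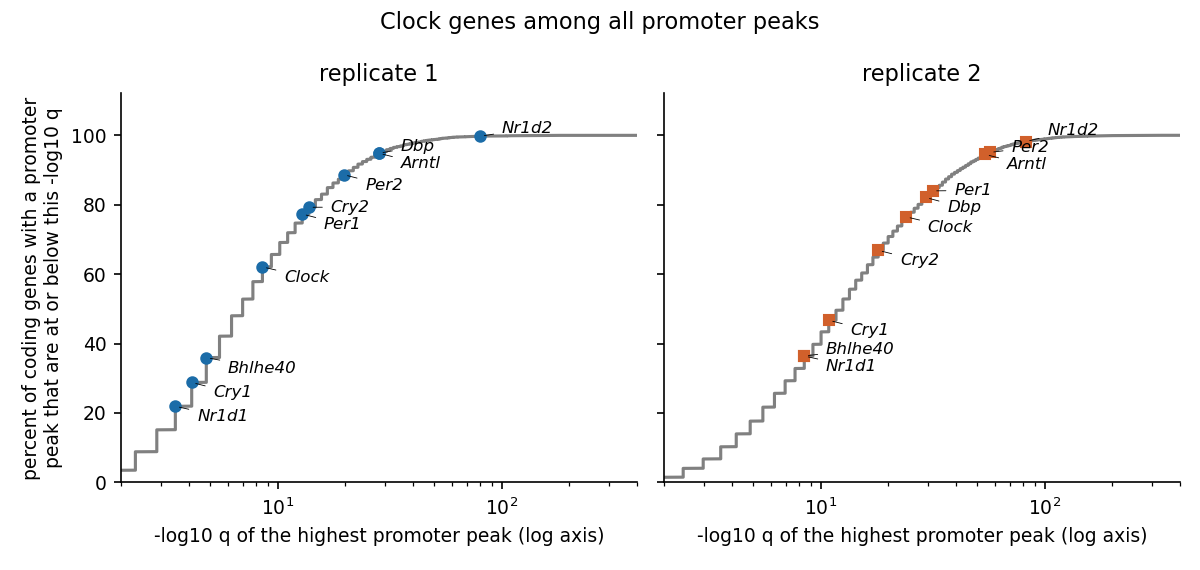
Grey curves give the percent of protein-coding genes with a promoter peak (vertical axis) whose highest promoter peak is at or below a given -log10 q (horizontal, log axis), in replicate 1 (left) and replicate 2 (right), with the clock genes marked on the curves. The group is spread along the curve, from Nr1d1, Cry1 and Bhlhe40 in the lower part to Nr1d2 at its top in both replicates.

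Of the activating pair, Arntl had the more prominent promoter. Arntl (ENSMUSG00000055116.8) lies on the plus strand at chr7:113207465-113314126. Its promoter peak spanned chr7:113206977-113207652 in replicate 1 and chr7:113206814-113207790 in replicate 2, with summits 154 and 161 bp upstream of the gene start. The fold over background was 10.4 in replicate 1 (41 tags, interval 29.4 to 55.6) and 14.6 in replicate 2 (65 tags, interval 50.2 to 82.8), with a -log10 q of 28.3 and 54.1. The summits, 7 bp apart, sat in a run of CCAAT boxes, the sequence bound by the NF-Y factor. Within 100 bp of each summit there were 5 CCAAT matches counting both strands. Of the genes with a promoter peak, 11 held as many around the summit in each replicate (0.155% of 7084 genes and 0.113% of 9739). In the RefSeq promoter table (GRCm38), where each promoter covers 250 bases before and 50 after a start, an Arntl promoter held 8 CCAAT matches. It was the only one of 32851 promoters with that many, and 37.4% held at least 1. A second Arntl start in that table overlaps the first, so its matches are mostly the same ones. The stretch around both summits (chr7:113207208-113207385, plus strand, 257 to 80 bp upstream of the gene start) is shown with its 5 boxes, all on the opposite strand, in capitals.
Arntl CCAAT boxes: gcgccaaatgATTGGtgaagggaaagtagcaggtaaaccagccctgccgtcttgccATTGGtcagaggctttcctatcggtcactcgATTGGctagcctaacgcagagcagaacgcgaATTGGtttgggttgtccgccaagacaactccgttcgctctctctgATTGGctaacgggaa

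The same peak reached into an exon of Arntl, where it held a RORE, the element through which REV-ERB and ROR receptors are known to act on Arntl. It lay 73 bp into the gene and 227 and 234 bp from the summits. RORE matches were rare, found in the highest promoter peak of 0.692% of genes in replicate 1 and 0.965% in replicate 2. Its letters are in capitals here (chr7:113207528-113207557, plus strand).
Arntl RORE: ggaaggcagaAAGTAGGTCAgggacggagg

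Beyond the promoter, Arntl had few peaks. An intronic peak 43.7 kb from the gene start was shared by both replicates (-log10 q of 7.74 and 16.1), with another RORE match 224 and 235 bp from its summits. Replicate 1 also had a weak intronic peak with a -log10 q of 2.88, and replicate 2 a distal one with 3.57. The Arntl window held 3 peaks in each replicate.

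Clock (ENSMUSG00000029238.11), on the minus strand at chr5:76209868-76304792, had a lower promoter. The highest promoter peak had a fold of 5.43 in replicate 1 (21 tags, interval 13.0 to 32.1) and 8.82 in replicate 2 (39 tags, interval 27.7 to 53.3), with a -log10 q of 8.54 and 24.0. In replicate 1 the promoter signal was split over 3 peaks, at 355 bp upstream of the gene start, 3 bp downstream and 824 bp downstream. In replicate 2 there were 2, at 233 bp upstream and 915 bp downstream. The summits of all these peaks also lay within 1 kb of a start of Gm7467, so the signal cannot be credited to Clock alone. The downstream peak held an E-box variant and a RORE in both replicates, 793 and 763 bp into the gene. In the Clock window, 4 of the 12 peaks in replicate 1 had a summit whose 50 bp occurred elsewhere in the genome. The share over all peaks of that replicate was 66.8%. At the intronic peak 80.8 kb into the gene, the replicate 1 summit occurred at 1162 places (-log10 q of 6.97), whereas the overlapping peak of replicate 2 had a unique summit (5.51). A peak 36.4 kb upstream, in the body of another gene, had a unique summit in each replicate, where its -log10 q was 8.54 and 14.3.

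Among the repressors, Per2 had the highest promoter in both replicates. Per2 (ENSMUSG00000055866.9) lies on the minus strand at chr1:91415982-91459324. Its promoter peak had a fold of 8.40 in replicate 1 (33 tags, interval 22.7 to 46.3) and 15.0 in replicate 2 (67 tags, interval 51.9 to 85.1), with a -log10 q of 19.7 and 56.7. Of the 10 genes, Per2 had the largest SD of the promoter fold over the replicates (4.67, n = 2). Both summits were upstream of the gene start, by 258 and 116 bp. The replicate 2 summit lay beside a D-box, the element bound by DBP and its relatives. The first base of the match was 125 bp upstream of the gene start, 133 and 9 bp from the summits. D-box matches were found in the highest promoter peak of 0.833% of genes in replicate 1 and 0.811% in replicate 2. The D-box is shown in capitals (chr1:91459422-91459469, minus strand).
Per2 D-box: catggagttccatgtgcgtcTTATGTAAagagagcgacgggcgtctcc

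An E-box variant (CACGTT, searched on both strands) lay at the Per2 gene start itself, 5 bp into the first exon and 263 and 121 bp from the summits. It is printed in capitals (chr1:91459304-91459329, minus strand). Variants occurred in the highest promoter peak of 10.2% of genes in replicate 1 and 12.0% in replicate 2.
Per2 E-box variant: cgcgcgcggtCACGTTttccactatg

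A weaker Per2 promoter peak, 864 and 959 bp into the gene, was present in both replicates (-log10 q of 2.88 and 8.44). The Per2 window held 9 peaks in replicate 1 and 17 in replicate 2, the most of any clock gene in replicate 2. Many of them belonged to neighbours. The promoter of Hes6, which encodes a transcriptional repressor of the HES family, held peaks with a -log10 q of up to 8.54 in replicate 1 and 38.3 in replicate 2, and the promoters of Ilkap, Erfe and Traf3ip1 held weaker ones. A peak 16.9 kb upstream (-log10 q of 6.22 and 19.0) had summits whose 50 bp occurred at 539 and 926 places, so its origin in the genome is uncertain.

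Per1 (ENSMUSG00000020893.17) lies on the plus strand at chr11:69095217-69109960. Its promoter peak had a fold of 6.67 in replicate 1 (26 tags, interval 17.0 to 38.1) and 10.4 in replicate 2 (46 tags, interval 33.7 to 61.4), with a -log10 q of 12.9 and 31.5. The peak was wide, 968 and 1201 bp. It held E-boxes (CACGTG) at 334 and 150 bp upstream of the gene start in both replicates. An EGR1 match overlapping none of them lay 162 bp upstream of the start, 82 and 89 bp from the summits. EGR1 is an early gene of the GnRH response, and its motif (GCGTGGGCG or GCGGGGGCG) was present in the highest promoter peak of 5.59% and 7.67% of genes. E-boxes were present in that of 12.6% and 15.7%. The stretch with both E-boxes in capitals is chr11:69094863-69095092 on the plus strand.
Per1 distal promoter E-boxes: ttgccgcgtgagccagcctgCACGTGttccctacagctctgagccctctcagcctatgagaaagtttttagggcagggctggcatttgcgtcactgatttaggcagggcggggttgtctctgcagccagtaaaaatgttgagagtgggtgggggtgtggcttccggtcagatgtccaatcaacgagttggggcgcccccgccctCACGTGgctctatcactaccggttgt

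Per1 also had accessible sites at later start sites inside the gene. A peak 3.6 kb from the gene start was found in each replicate (-log10 q of 3.49 and 14.3) and held an E-box 74 and 33 bp from its summits (chr11:69098763-69098808, plus strand, capitals). A further peak 4.8 kb from the gene start had a -log10 q of 14.3 in replicate 2 and was not listed in replicate 1.
Per1 second promoter E-box: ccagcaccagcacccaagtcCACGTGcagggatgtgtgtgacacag

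Around Per1 the replicates differed the most in number of peaks, with 6 in replicate 1 and 15 in replicate 2. The only distal peak shared by both was at the promoter of Borcs6 and 9330160F10Rik (-log10 q of 5.50 and 24.0). A distal peak 29.0 kb from the gene start had a -log10 q of 14.3 in replicate 2 alone, and peaks at the promoters of Aurkb, Tmem107 and Snord118 were likewise listed in replicate 2 alone.

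The cryptochrome genes had simpler surroundings. Cry1 (ENSMUSG00000020038.10) lies on the minus strand at chr10:85131700-85185064, and its window held 2 peaks in each replicate. Its promoter peak had a fold of 3.95 in replicate 1 (15 tags, interval 8.40 to 24.7) and 5.73 in replicate 2 (25 tags, interval 16.2 to 36.9), with a -log10 q of 4.13 and 10.8. The peak at the promoter of its neighbour Mterf2 was higher in both replicates (8.54 and 16.1). Upstream of the Cry1 start an E-box variant and an E-box stood close together, at 69 and 50 bp. The variant lay inside the peak of both replicates, 16 and 105 bp from the summits. The E-box was inside the peak of replicate 2 and, in replicate 1, within 100 bp of the summit but past the edge of the peak. The pair is printed in capitals (chr10:85185089-85185153, minus strand). The first of them is the variant as read on the other strand.
Cry1 E-box pair: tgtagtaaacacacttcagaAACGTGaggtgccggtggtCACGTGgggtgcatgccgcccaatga

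Cry2 (ENSMUSG00000068742.11), on the minus strand at chr2:92403646-92434043, had a promoter of similar height in both replicates. The fold was 6.91 in replicate 1 (27 tags, interval 17.8 to 39.3) and 7.50 in replicate 2 (33 tags, interval 22.7 to 46.3), with a -log10 q of 13.8 and 18.0. Its summits, 224 and 200 bp upstream of the gene start, lay 32 and 8 bp from an E-box variant (chr2:92434210-92434255, minus strand, capitals, the variant as read on the other strand). This was the closest match of an E-box or its variant to the highest promoter summit of replicate 2 among the clock genes. No summit lay inside the Cry2 gene body in either replicate. In replicate 2 the shared promoter of Pex16 and Large2, 58.8 kb from the Cry2 start, had the same -log10 q as the Cry2 promoter.
Cry2 E-box variant: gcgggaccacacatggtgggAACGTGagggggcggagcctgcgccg

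The REV-ERB genes were at opposite ends of the order by mean fold, although the place of Nr1d1 was not resolved from those of Bhlhe40 and Cry1. Nr1d2 (ENSMUSG00000021775.11), on the minus strand at chr14:18204054-18239127, had the highest and widest promoter peak of the 10. It spanned chr14:18238063-18239804 in replicate 1 and chr14:18237755-18239788 in replicate 2, a width of 1742 and 2034 bp. The fold was 20.2 in replicate 1 (81 tags, interval 64.3 to 101) and 19.2 in replicate 2 (86 tags, interval 68.8 to 106), with a -log10 q of 80.1 and 82.0. The height agreed between replicates within counting error, whereas the summit did not keep its place. It lay 140 bp upstream of the gene start in replicate 1 and 755 bp downstream, in an intron, in replicate 2, a gap of 895 bp. With a promoter limit of 500 bp instead of 1 kb, the replicate 2 peak was lost and a weak one with a -log10 q of 2.99 took its place. Between the summits the peak held 3 E-boxes, 449, 552 and 597 bp into the gene, and a D-box 517 bp into it, in both replicates. No other clock gene had as many E-boxes in a single peak. They are shown in capitals (chr14:18238505-18238698, minus strand, intron), with the D-box, TTACATAA on this strand, as the second match.
Nr1d2 E-boxes and D-box: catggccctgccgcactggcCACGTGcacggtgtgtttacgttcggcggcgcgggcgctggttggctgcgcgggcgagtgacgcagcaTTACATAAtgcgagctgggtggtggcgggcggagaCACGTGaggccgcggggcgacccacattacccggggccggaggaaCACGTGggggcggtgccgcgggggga

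The highest peak in any clock gene window was also near Nr1d2. It lay 32.0 kb upstream at the shared promoter of Rpl15, which encodes a ribosomal protein, and Nkiras1, and had a -log10 q of 100.6 and 174.5. The remaining Nr1d2 peaks were weak, with a -log10 q of at most 4.80 in replicate 1 and 2.99 in replicate 2, and several had multi-copy summits.

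Nr1d1 (ENSMUSG00000020889.11), on the minus strand at chr11:98767932-98775333, had the lowest promoter of the 10 by mean fold. The fold was 3.70 in replicate 1 (14 tags, interval 7.65 to 23.5) and 5.07 in replicate 2 (22 tags, interval 13.8 to 33.3), with a -log10 q of 3.49 and 8.44. An E-box variant lay 72 bp upstream of its start, 43 and 61 bp from the summits (chr11:98775390-98775415, minus strand).
Nr1d1 promoter E-box variant: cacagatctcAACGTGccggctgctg

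The highest peak of the Nr1d1 window was instead inside the gene. It was intronic, with summits 1270 and 1205 bp from the gene start, just outside the 1 kb promoter limit, and had a fold of 5.19 in replicate 1 and 6.83 in replicate 2 (-log10 q of 7.74 and 15.2). It held an E-box 1174 bp and a D-box 1246 bp into the gene, the D-box 24 and 41 bp from the summits. With a promoter limit of 2 kb this peak became the promoter peak of Nr1d1, and its mean -log10 q rose from 5.96 to 11.5. An E-box and a D-box in the same peak of both replicates, within an intron near the gene start, were thus present at both REV-ERB genes. The Nr1d1 stretch is chr11:98774060-98774179 on the minus strand, with the E-box and then the D-box in capitals.
Nr1d1 intron E-box and D-box: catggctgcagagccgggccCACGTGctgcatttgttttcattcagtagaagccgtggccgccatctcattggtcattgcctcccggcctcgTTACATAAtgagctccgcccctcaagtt

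Of the output genes, Dbp (ENSMUSG00000059824.12) is a short gene of 5.1 kb on the plus strand at chr7:45705088-45710203, and peaks were spread along it. Its promoter peak had a fold of 10.4 in replicate 1 (41 tags, interval 29.4 to 55.6) and 9.92 in replicate 2 (44 tags, interval 32.0 to 59.1), with a -log10 q of 28.3 and 29.3. In total 3 promoter peaks in replicate 1 and 5 in replicate 2 fell within 1 kb of its 5 annotated start sites. All but the highest had a -log10 q of at most 5.50. The weaker replicate 1 peak 809 bp upstream of the gene start also had its summit within 1 kb of a start of Car11. The promoter held ROREs at 237 and 192 bp upstream of the gene start, 52 and 7 bp from the summit of replicate 1 and 160 and 115 bp from that of replicate 2. In replicate 1 it was the only promoter peak among 7084 genes with 2 RORE matches within 100 bp of its summit. They are in capitals here (chr7:45704831-45704925, plus strand).
Dbp ROREs: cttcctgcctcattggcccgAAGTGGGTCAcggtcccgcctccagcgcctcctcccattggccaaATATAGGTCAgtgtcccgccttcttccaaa

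No E-box was found in the highest Dbp promoter peak. An E-box in a weaker promoter peak, 2624 bp into the gene, was inside the peak of replicate 2 alone (-log10 q of 3.57). The highest distal peak near Dbp was at the Sphk2 promoter, 7.4 and 7.5 kb from the Dbp start (-log10 q of 11.1 and 27.2), and others lay at the Rpl18 and Sphk2 promoters. A peak 35.0 kb from the start, in the body of another gene, was listed in replicate 1 alone (-log10 q of 5.50).

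Bhlhe40 (ENSMUSG00000030103.11), on the plus strand at chr6:108660629-108666925, had a low promoter peak with a fold of 4.20 in replicate 1 (16 tags, interval 9.15 to 26.0) and 5.07 in replicate 2 (22 tags, interval 13.8 to 33.3). The -log10 q was 4.80 and 8.44, and the summits lay 81 bp downstream and 148 bp upstream of the gene start. Both summits were also within 1 kb of a start of 0610040F04Rik. An E-box 257 bp upstream of the Bhlhe40 start lay inside the promoter peak of replicate 2 alone, 109 bp from its summit. A peak between genes, 7.9 and 8.0 kb from the start and past the end of the gene, was higher in replicate 2, with a -log10 q of 21.0. In replicate 1 it had 5.50, tied with a peak 1.9 kb upstream. Replicate 2 alone had a peak 1115 bp upstream of the start with a -log10 q of 14.3, just outside the promoter limit, and an E-box lay 71 bp from its summit. With a limit of 2 kb the mean promoter -log10 q of Bhlhe40 moved from 6.62 to 9.90. The downstream peak held an E-box variant overlapping a CRE half-site (TGACGT, the core of the element bound by CREB), 79 and 25 bp from the summits. Both are in the capital run (chr6:108668496-108668545, plus strand).
Bhlhe40 downstream E-box variant: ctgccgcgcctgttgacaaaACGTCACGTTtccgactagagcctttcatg

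**Figure D3:**
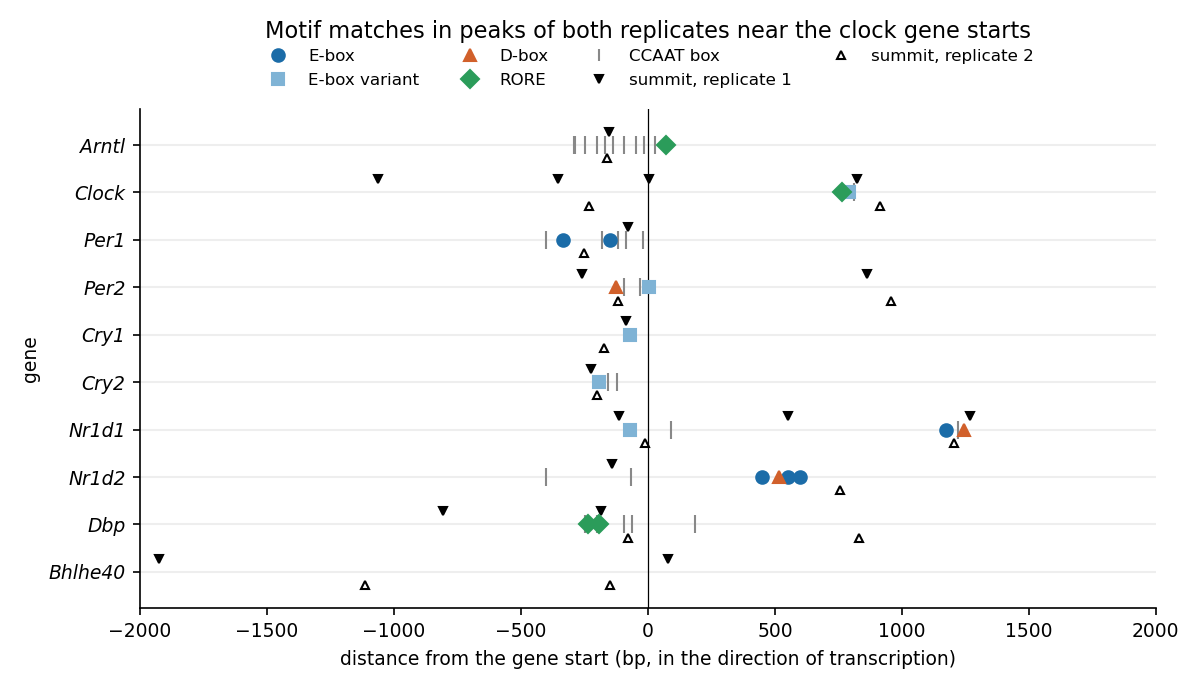
Matches to clock motifs and CCAAT boxes inside peaks of both replicates, by distance from the gene start (horizontal axis, bp, within 2 kb, in the direction of transcription), with triangles for peak summits of each replicate. The run of CCAAT boxes at Arntl, the 3 E-boxes and D-box at Nr1d2 and the paired ROREs at Dbp stand out, and Bhlhe40 has none of these matches within this range.

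Counted over all peaks of the windows, an E-box, an E-box variant, a D-box or a RORE was found in a peak of both replicates at each of the 10 genes, 23 sites in all. These counts include distal peaks at the promoters of neighbours, and by their median the windows were denser in peaks than those of other genes. No share over all genes was computed for them or for the next counts, so neither sets the clock genes apart. Within promoter peaks of both replicates there were 6 E-boxes at 2 genes (Nr1d2 and Per1), 5 variants at 5 genes (Clock, Cry1, Cry2, Nr1d1 and Per2), 2 D-boxes (Nr1d2 and Per2) and 4 ROREs at 3 genes (Arntl, Clock and Dbp). In the highest promoter peak alone, an E-box was present at 2 clock genes in replicate 1 and 4 in replicate 2, against 12.6% and 15.7% of genes. A variant was present at 4 in each, against 10.2% and 12.0%. A D-box and a RORE were present at 2 each, against 0.833% and 0.811% for the D-box and 0.692% and 0.965% for the RORE. A full CRE (TGACGTCA), the motif of CREB, was absent from the highest promoter peaks of all 10 genes and present in 4.07% and 4.42% of those of all genes. The AP1 motif (TGANTCA) was also absent from them, against 7.33% and 8.14%, as was the CArG box of the serum response factor, against 1.68% and 2.28%. At shares this low, absence from 10 genes does not set the clock genes apart. The CRE half-site was present in the highest promoter peak of Nr1d2 in both replicates, against 16.5% and 18.1% of genes. In weaker promoter peaks of both replicates, an AP1 match lay 82 and 13 bp from the summits at Per2 and a CArG box 97 and 21 bp from them at Dbp. CCAAT boxes were present at 7 and 8 of the clock genes, against 50.9% and 52.0%. Because the promoter peaks of the clock genes were wider than those of other genes, a whole-peak share is not on equal terms between them. Within 100 bp of the summit an E-box was found at 2 clock genes (Cry1 and Per1) in replicate 1 and at 1 (Per1) in replicate 2, against 6.61% and 7.64% of genes. A variant was found there at 3 and 2, against 4.67% and 4.14%. A D-box was found at 0 and 1 (Per2), against 0.226% and 0.216%. For the RORE the counts were 1 (Dbp) and 0, against 0.212% and 0.267%. A match describes letters in the sequence and not a bound factor. The RefSeq promoter table held 12 promoters of 8 of the clock genes, all but Per2 and Bhlhe40. Of these 12, 0 held a D-box, against 0.938% of all promoters in it, and 1 held a RORE, against 0.773%.

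**Figure D4:**
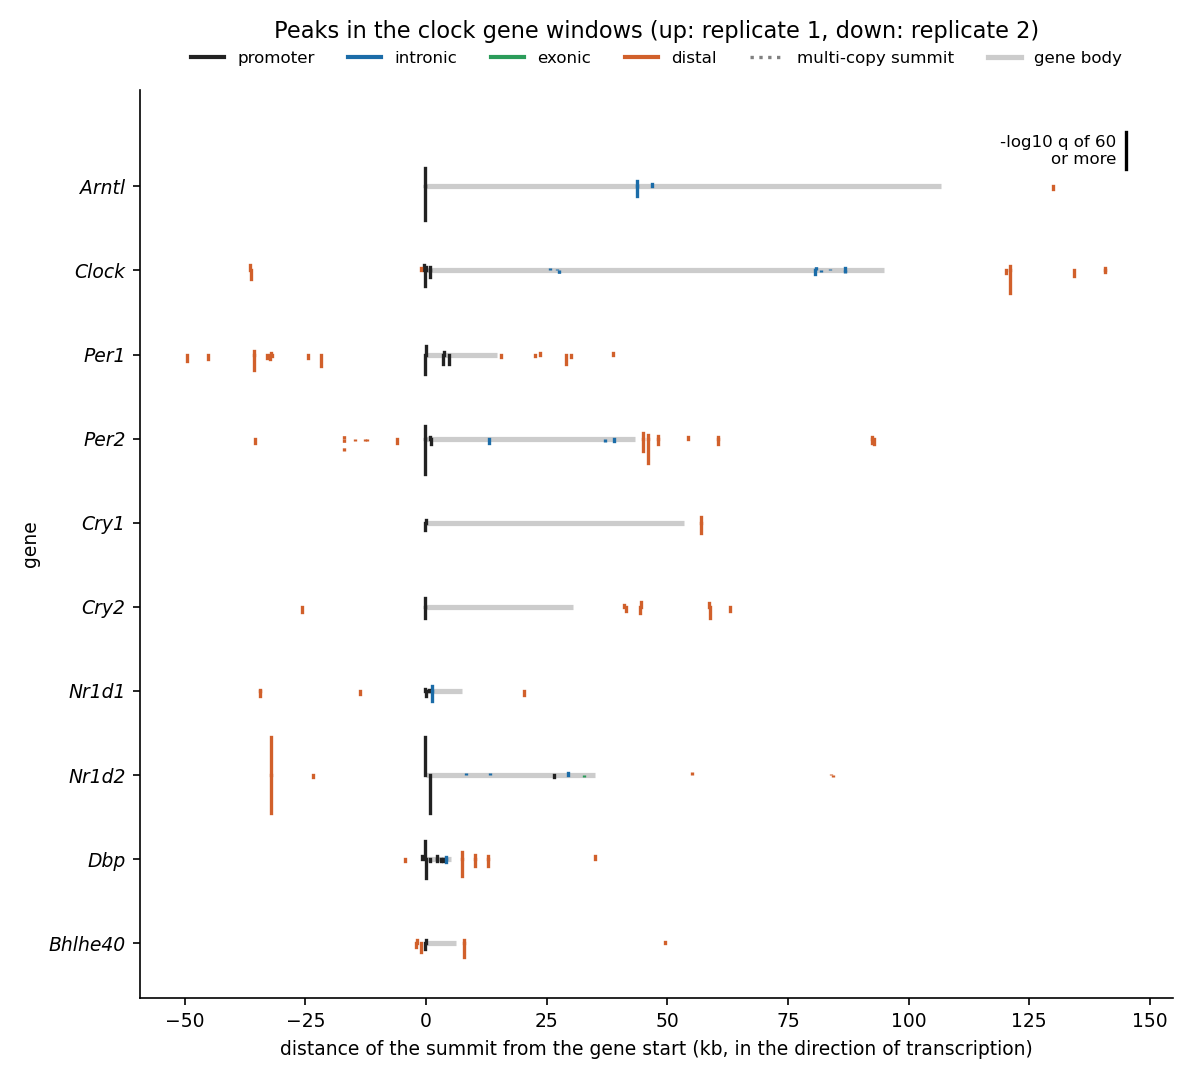
Every peak in the windows of the 10 clock genes by the distance of its summit from the gene start (horizontal axis, kb, in the direction of transcription). Bars point up for replicate 1 and down for replicate 2, their length is the -log10 q up to 60, colour gives the class, and grey lines are the gene bodies. The tallest bars of Arntl, Per2 and Dbp stand at the gene start, whereas near Nr1d2 a distal peak 32.0 kb upstream is as tall as its own promoter on this clipped scale.

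The windows of the 10 genes held 59 peaks in replicate 1 and 79 in replicate 2 (69.0 ± 14.1 as mean and SD, n = 2). The promoter class held 17 and 19 peaks and the intronic class 12 and 10, although the intronic peaks of Per2 were all in replicate 2 and those of Nr1d2 all in replicate 1. The distal class differed the most in number, with 30 in replicate 1 and 49 in replicate 2. Replicate 2 held 1 exonic peak, in Nr1d2. The map of peaks gives their positions, and the plot of peak numbers shows that most of the distal peaks lay at or in other genes. Of the 30 in replicate 1, 16 lay at the promoter of another gene, 5 in the body of another gene and 9 between genes. Of the 49 in replicate 2, these numbers were 25, 6 and 18. By their median the windows were denser in peaks than those of all protein-coding genes, at 4.47 and 4.63 peaks per 100 kb against 1.73 and 2.31. Arntl (1.45 in each replicate) and Cry1 (1.30 in each) were exceptions and lay below the median of all genes.

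**Figure D5:**
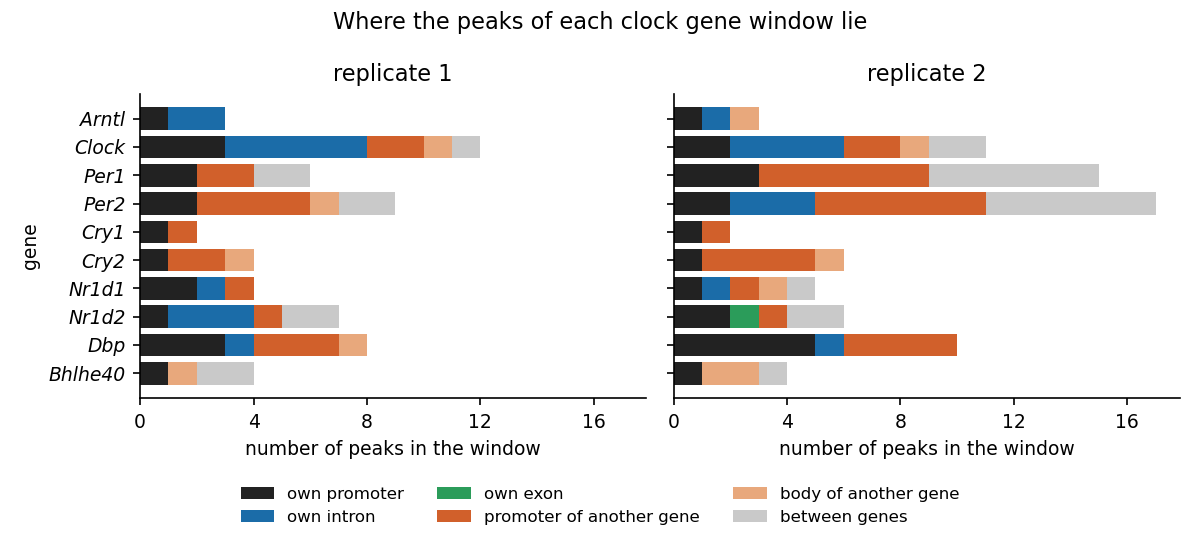
Number of peaks in the window of each clock gene (horizontal axis), split by where the summit lies, for replicate 1 (left) and replicate 2 (right). Per1 and Per2 have the longest bars in replicate 2, with 15 and 17 peaks, and Cry1 the shortest in both, with 2.

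Of the window peaks, 74.6% in replicate 1 and 53.2% in replicate 2 overlapped a peak of the other replicate by at least 1 bp. The shares over all peaks, wherever they lay in the genome, were 59.1% and 51.6%. Of the promoter peaks, 16 of 17 in replicate 1 and 14 of 19 in replicate 2 were shared. The shared intronic peaks were 6 of 12 and 6 of 10, and the shared distal peaks 22 of 30 and 22 of 49. There were 44 overlapping pairs, of which 37 had the higher fold in replicate 2, and the median distance between their summits was 83 bp. Summits in repeated sequence were less frequent than over all peaks, which are not limited to the surroundings of genes. Neither share was computed for the windows of other genes, so these contrasts may belong to gene surroundings in general. The 50 bp around the summit occurred more than once in the genome for 15.3% and 12.7% of the window peaks, against 66.8% and 61.1% of all peaks. None of these was in a promoter peak of a clock gene. The own promoter held the highest peak of the window for Arntl, Per1, Per2, Cry2 and Dbp in replicate 1 and for Arntl, Per1, Per2 and Dbp in replicate 2. Clock in replicate 1 and Cry2 in replicate 2 were tied with another peak.

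A list of 22 other clock-related genes was examined in the same way. A promoter peak was present at 10 of them in replicate 1 and 15 in replicate 2, with all of the 10 also present in replicate 2, against 32.3% and 44.4% of all protein-coding genes. At a -log10 q of at least 10 there was 1 in replicate 1, Tef, against 11.1% of all genes, and there were 8 in replicate 2, against 26.7%. Tef encodes a D-box activator related to DBP, and its promoter had a -log10 q of 14.7 and 36.0. Usp2, Nampt, Rorb, Btrc, Cipc, Per3, Bhlhe41, Noct and Nono had lower promoter peaks in both replicates. Rora, whose product acts at ROREs, and Npas2, a relative of Clock, had a peak in replicate 2 and none listed in replicate 1, as did Hlf, Ciart and Fbxl21. No promoter peak was listed in either replicate at 7 genes, Arntl2, Nfil3, Csnk1d, Csnk1e, Timeless, Tipin and Sirt1. The median -log10 q of those with a peak was 5.51 and 11.7, below the medians of all genes with a promoter peak (6.97 and 12.5) and of the 10 clock genes. Absence from a list says that no peak passed the threshold at this depth, and the lowest peaks listed held 10 tags in replicate 1 and 11 in replicate 2.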

How the data were processed

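ATAC-seq peaks of 2 replicates of pulsed LβT2 cells were used. According to the study's methods and the labels, the authors aligned reads to GRCm38 (mm10) with Bowtie2, removed duplicates and called peaks in each replicate with MACS2 (no model, shift 100, extension 200). Tool versions are not given in the sources used here. The genome size setting was that of the fly, which affects the background rate and so fold and q. The deposited values were the fold enrichment (a ratio to background, with a pseudocount of 1), the −log10 of the p-value and q-value, and a score, which is 10 times the −log10 q cut to a whole number. A background of 3.05 and 3.54 tags was solved from the steps of the fold in replicates 1 and 2, and from it the tags at each summit. The depth per replicate after duplicate removal is not given in the sources used here, and intervals are 95% exact Poisson, covering counting error only.

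Peaks were assigned by summit with Python 3.11.15, pandas 2.3.3, numpy 2.4.6, scipy 1.17.1 and numba 0.67.0, on GENCODE vM21 and the GRCm38.p6 sequence (samtools 1.23.1, pysam 0.24.0). The summit position was taken as the start column plus the summit offset. The highest −log10 q within 1 kb of any start site stood for a promoter. Summits were called multi-copy when their 50 bp occurred more than once, on either strand, in the assembled chromosomes. Of the 11 motifs searched on both strands, overlapping matches were each counted, a full CRE also counts as half-sites, and distances are to the first base of a match along the gene. The functions were tested on simulated data. The genes named were the 10 clock genes, a list of 22 clock-related genes and the marker genes, plus genes whose promoter held a peak of a window. Some genes first on that list are not reported here. Members and lists were chosen with earlier results of these data known, and the printed stretches and the CpG-rich class were chosen after the values were seen. Both samples form 1 group, so no test was made. Alternatives varied the −log10 q minimum, copy number, promoter limit, start sites, window, overlap rule and replicate. Supplementary expression data of the study were not used here.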

Additional observations from a re-analysis of the deposited data

How the results depend on the processing

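The number of clock genes with a promoter peak stayed at 10 in each replicate under every other promoter definition tried. A limit of 500 bp and start sites of protein-coding transcripts alone could have lowered it. A limit of 2 kb, assignment by overlap and single-copy summits alone could not. The wider limit and overlap only add peaks, and no clock gene promoter peak had a multi-copy summit. With a −log10 q of at least 5 the number of genes was 7 in replicate 1 and 10 in replicate 2. With at least 10 it was 6 in replicate 1 and 6 in both. The mean number of window peaks was 41.5 and 19.5 at these minimums, intronic peaks 4.5 and 1, distal peaks 25 and 10, and promoter peaks 8.5 at the higher one. Single-copy summits alone left 6 intronic peaks. A window of 10 kb gave 42 peaks, 12.5 of them distal. The shared share, a mean of 63.9%, was 42.9% when an overlap of 50% of both peaks was required and 40.0% for summits within 100 bp.

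Leaving out each replicate in turn gives the other replicate's value. The ranges were 59 to 79 for window peaks, 17 to 19 for promoter peaks, 10 to 12 for intronic peaks, 30 to 49 for distal peaks, 53.2% to 74.6% for the shared share and 13.3 to 26.7 for the median promoter −log10 q. No paired analysis was possible because the replicates form 1 group. For single genes, leaving out replicate 2 lowered the promoter −log10 q by more than 1.5 times at Clock (16.3 to 8.54), Per1 (22.2 to 12.9), Per2 (38.2 to 19.7), Cry1 (7.49 to 4.13) and Nr1d1 (5.96 to 3.49). Apart from these, of 63 alternative values over all clock genes 49 stayed near the reported ones. Near meant within 1.5 times for counts and within the SD of the replicates for other values. By this rule the fall from 10 to 7 genes at a −log10 q of at least 5 counted as near. Some settings could not change the value they were set against. Other promoter limits and start sites left 27 of 30 single-gene values near theirs, the exceptions being Nr1d1, Nr1d2 and Bhlhe40 as described with them. Depth limits the weakest peaks, which rest on few tags.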
